A study of Mus musculus with 12 samples.

Results

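Genes of the interleukin-6 (IL-6) family pathway were followed in lymphatic endothelial cells (LECs) sorted from mouse lungs after exposure to cigarette smoke (CS) or room air (RA). The 8 genes are the ligands Il6 and Lif, the receptor subunits Il6ra, Il6st, Lifr and Osmr, the transcription factor gene Stat3 and its feedback inhibitor Socs3. They were chosen by gene symbol, as the rows of the count files whose Ensembl identifiers carry these symbols in GENCODE M21, and they are 8 of 52636 identifiers. All 8 passed the filter on low counts.

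The cells came from Prox1-EGFP reporter mice, in which regulatory sequence of the lymphatic gene Prox1 drives a green fluorescent protein. The mice were exposed to CS in a whole-body chamber on 5 days a week, starting at 6 weeks of age, or breathed RA. Live cells without lineage markers and EPCAM and with CD31 and GFP were sorted, and polyadenylated RNA was sequenced after SMART-Seq v4 amplification. There were 2 acute CS, 2 acute RA, 3 chronic RA and 5 chronic CS libraries, named below by group, sex and number. Acute exposure lasted 8 weeks and chronic exposure at least 24 weeks by the methods of the study, while the labels give 8wk and Aged as ages. Each acute library pooled LECs of 2 to 5 mice of 1 condition and chronic libraries were not pooled, so pooling and length of exposure cannot be told apart. A strain background of the reporter mice was not given in the sources used here.

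The libraries held 18821438 (chronic CS F) to 56998590 (acute RA F) counts. Values are counts scaled per library (CPM), by library size and the TMM factors of edgeR. The lymphatic transcripts Prox1, at 1042 CPM or more, and Flt4, the gene of the receptor for VEGF-C, at 1159 CPM or more, were present in every library. Ccl21a, another lymphatic marker, was at 0.0785 to 1.06 CPM. Both acute CS libraries stood apart. Their summed level of 8 lymphatic markers was 6485 to 9822 CPM, against 14901 to 22931 CPM in the other 10 libraries. Against acute RA, 7 of the 8 had a negative log2 fold change. Lyve1 was higher, at 568 and 986 CPM in acute CS F and M and 443 and 536 CPM in acute RA F and M. The summed level of 8 leukocyte markers in acute CS was 1609 to 2324 CPM, against 162 to 424 CPM in the others. That of 10 blood endothelial markers was 7798 to 9142 CPM, against 3003 to 3979 CPM. Plvap alone gave 1704 to 3053 CPM of the blood endothelial sum across all libraries. These sums are set beside the results they touch. In bulk RNA, fewer cells of a type and less RNA per cell cannot be told apart.

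IL-6 family cytokines signal through receptor complexes that share the subunit gp130, the product of Il6st. IL-6 first binds its own receptor, encoded by Il6ra, whereas leukemia inhibitory factor (LIF) uses gp130 paired with the product of Lifr and oncostatin M uses gp130 paired with that of Osmr. The complexes activate Janus kinases, which phosphorylate STAT3. STAT3 enters the nucleus and induces Socs3, whose protein binds gp130 and the kinases and ends the signal. In endothelium, IL-6 signalling is known to induce adhesion molecules and chemokines.

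The promoter sequences of the inducible feedback gene Socs3, of the receptor gene Lifr and of the cytokine gene Il6 are shown as 1 gene of each kind. Socs3 itself did not differ clearly after CS in either comparison below. Each runs 5′ to 3′ over the 250 bases before a transcription start in RefSeq (build GRCm38.p6). Capitals mark the STAT motif TTCNNNGAA, which reads the same on both strands and was searched without regard to other motifs. The Socs3 window lies on the minus strand and overlaps an exon of a non-coding Socs3 transcript in GENCODE M21. The Lifr and Il6 windows lie on the plus strand.
Socs3, chr11:117969367-117969616: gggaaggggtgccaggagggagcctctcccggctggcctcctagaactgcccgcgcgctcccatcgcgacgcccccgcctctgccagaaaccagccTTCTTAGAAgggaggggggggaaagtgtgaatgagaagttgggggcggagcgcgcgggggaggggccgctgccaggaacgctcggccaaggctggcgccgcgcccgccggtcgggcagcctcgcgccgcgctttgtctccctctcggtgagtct
Lifr, chr15:7129322-7129571: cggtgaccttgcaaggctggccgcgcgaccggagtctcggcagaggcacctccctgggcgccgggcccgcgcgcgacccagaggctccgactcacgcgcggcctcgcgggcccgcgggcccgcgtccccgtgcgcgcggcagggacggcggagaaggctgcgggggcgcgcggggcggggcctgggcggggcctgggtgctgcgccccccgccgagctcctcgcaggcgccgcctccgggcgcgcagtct
Il6, chr5:30012864-30013113: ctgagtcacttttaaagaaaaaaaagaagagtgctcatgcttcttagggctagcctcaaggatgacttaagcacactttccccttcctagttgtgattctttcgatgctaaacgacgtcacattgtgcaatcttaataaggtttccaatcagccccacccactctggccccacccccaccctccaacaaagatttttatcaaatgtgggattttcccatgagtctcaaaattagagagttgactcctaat
The motif occurred once in the Socs3 window, as TTCTTAGAA starting 154 bases before the start. It occurred in 1 of 9 windows of the 8 genes, Lifr having a pair of them, and in 2306 of 32851 windows of all genes (7.02%). A match of these letters is a description of the window and not a measured binding site.

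In GRCm38, Lifr (ENSMUSG00000054263) spans chr15:7090614-7197489 on the plus strand, and Osmr (ENSMUSG00000022146) lies beside it on the minus strand at chr15:6813577-6874969. The ligand genes Il6 (ENSMUSG00000025746, chr5:30013114-30019981) and Lif (ENSMUSG00000034394, chr11:4257557-4272514) and the gp130 gene Il6st (ENSMUSG00000021756, chr13:112464070-112510086) lie on the plus strand. Il6ra (ENSMUSG00000027947, chr3:89864059-89913196), Stat3 (ENSMUSG00000004040, chr11:100885098-100939540) and Socs3 (ENSMUSG00000053113, chr11:117966079-117970047) lie on the minus strand. Exon bases of Stat3 overlap Stat5a, and those of Il6ra overlap the antisense gene Gm42809, which had 122 counts over all libraries. The strand setting of the counting was not given in the sources used here, so reads of such a pair cannot be told apart.

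Per exon length, Socs3, Il6st and Stat3 were the most abundant of the 8 genes in RA libraries, and the ligands Il6 and Lif were rare. Over the 5 RA libraries, Socs3 had the highest level, 176 FPKM (CPM per kilobase of exon), with a range of 124 to 240. Il6st followed at 60.1 FPKM (38.8 to 78.3) and Stat3 at 31.3 FPKM (30.4 to 33.2), and these ranges did not overlap. Osmr was at 10.8 FPKM (7.45 to 13.3) and Lifr at 7.38 FPKM (6.06 to 8.47), with overlapping ranges. Il6ra, the receptor subunit for IL-6, was at 2.64 FPKM (1.92 to 3.46). Lif at 0.411 FPKM (0.202 to 0.761) and Il6 at 0.402 FPKM (0.0516 to 1.21) were the lowest of the 8 and could not be ordered. Among the other receptor subunits, Il11ra1, the receptor for IL-11, reached 75.6 FPKM (59.1 to 93.5), a range that overlapped that of Il6st.

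**Figure D1:**
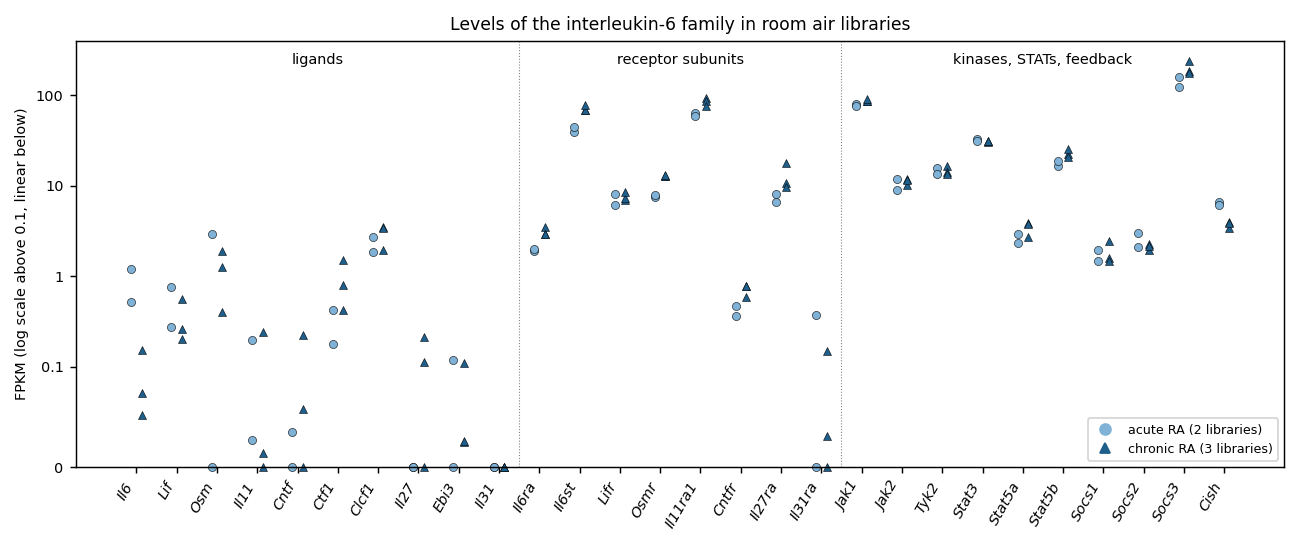
FPKM (vertical axis, logarithmic above 0.1 and linear below) of most ligands, receptor subunits, kinases, STATs and feedback genes of the IL-6 family in the 2 acute RA (circles) and 3 chronic RA libraries (triangles), 1 point per library. The ligand genes drawn lie below 4 FPKM, while Il6st, Il11ra1, Jak1, Stat3 and Socs3 lie above 30 FPKM.

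The acute comparison asks what 8 weeks of CS changed in the cells. Lifr, which encodes the receptor subunit for LIF, was the 1 of the 8 genes that rose past the limit (edgeR quasi-likelihood test, Benjamini-Hochberg adjusted p under 0.05). It was about 2.08-fold higher after CS. Of all 21440 genes tested, 3.47% were called in this comparison with 2.75% called higher and 0.723% lower. Il6ra, Il6st and Stat3 were also higher in both CS libraries than in both RA libraries without passing the limit, and Osmr was not. At an unadjusted p under 0.05, edgeR listed Lifr and Il6ra, 2 of the 8 genes, against 15.7% of all genes. The median log2 fold change of the 8 genes was 0.40, against 0.04 over all genes.

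Lifr was counted at 87.3 CPM in acute RA F and 65.3 CPM in acute RA M, while the CS libraries had 186 CPM (F) and 131 CPM (M). The groups did not overlap, and the ratio of CS to RA was 2.13 between the F libraries and 2.01 between the M libraries. The log2 fold change was 1.05 (SE 0.22, adjusted p = 0.025 by edgeR). This call was lost in fits with only the acute libraries (adjusted p = 0.136) and without acute RA F (0.0847), acute RA M (0.272) or acute CS F (0.226), with log2 fold changes of 1.04, 1.28, 0.83 and 0.78. It was kept without acute CS M (1.29, adjusted p = 0.015) and with DESeq2 (1.06, adjusted p = 0.000279, with 9.15% of all genes called), and with sex as a covariate (adjusted p = 0.0401). The 2 libraries with the highest Lifr were also those with the highest leukocyte and blood endothelial sums and the lowest lymphatic sums given above, and the part of these cells in the result was not tested.

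Il6ra, whose product binds IL-6 itself, was at 16.6 and 17.3 CPM in acute RA F and M, and at 41.0 and 22.0 CPM in acute CS F and M. Both CS libraries were higher, acute CS M by less than acute CS F, and the log2 fold change was 0.89 (SE 0.33, adjusted p = 0.20 by edgeR). Il6st, the gene of the shared subunit gp130, was at 431 and 495 CPM in acute RA and at 688 and 754 CPM in acute CS, F before M. Again the groups did not overlap, with a log2 fold change of 0.64 (SE 0.38, adjusted p = 0.481 by edgeR). Osmr, the partner of gp130 for oncostatin M, was at 90.3 and 94.9 CPM in acute RA and at 82.0 and 91.5 CPM in acute CS. Its groups overlapped, and the log2 fold change was -0.09 (SE 0.22).

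The ligand genes were low in the acute libraries. Il6 was at 2.94 CPM (174 counts) and 1.27 CPM (67 counts) in acute RA F and M, while the CS libraries had 7.03 CPM (358 counts, F) and 1.54 CPM (71 counts, M). Acute CS F was the highest and acute CS M lay between the RA libraries. The log2 fold change of 1.02 had an SE of 1.14 and became -0.45 without acute CS F. Lif was at 1.18 and 3.31 CPM in acute RA and at 1.63 and 1.04 CPM in acute CS. Its groups overlapped (log2 fold change -0.75, SE 1.85).

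Stat3 was at 316 and 295 CPM in acute RA and at 338 and 341 CPM in acute CS, F before M. The CS libraries were higher by little, with a log2 fold change of 0.15 (SE 0.15, adjusted p = 0.740 by edgeR). Socs3 was at 357 and 454 CPM in acute RA, while the CS libraries had 624 CPM (F) and 216 CPM (M). The CS libraries lay on opposite sides of both RA libraries, with ratios of CS to RA of 1.75 for F and 0.476 for M, and the log2 fold change over both was 0.05 (SE 0.38). In all, 4 of the 8 genes (Il6ra, Il6st, Lifr and Stat3) had groups that did not overlap, each higher after CS, and 49.9% of all genes tested had such groups at this size, with 27.4% of all genes higher. An exact two-sided permutation test of 2 against 2 libraries cannot go below 0.333.

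**Figure D2:**
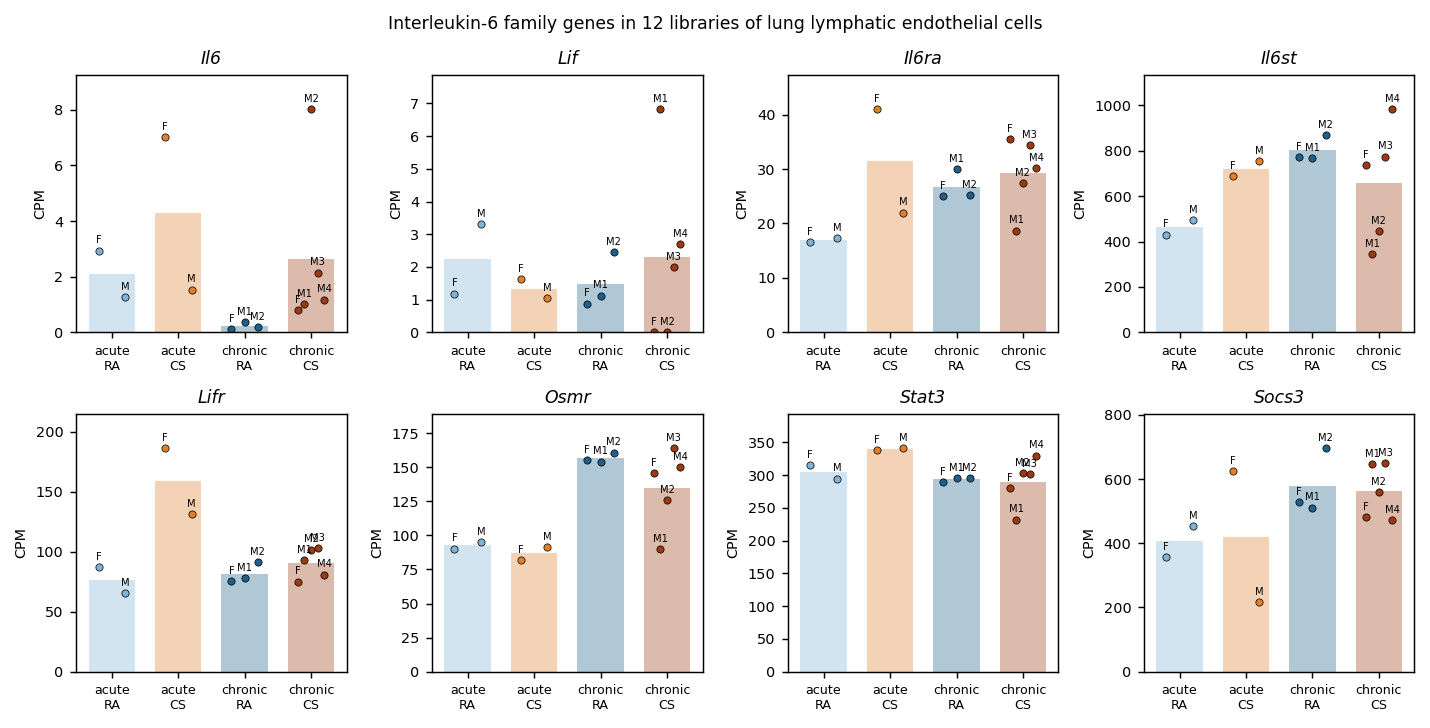
CPM (vertical axes, linear from 0) of the 8 genes in acute RA, acute CS, chronic RA and chronic CS; bars are group means, points are the 12 libraries with sex and number. Lifr stands at 131 to 186 CPM in acute CS and at 65.3 to 103 CPM elsewhere, and Il6 is below 0.4 CPM only in chronic RA.

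The chronic comparison asks the same after at least 24 weeks. Il6 was the 1 gene of the 8 whose 5 CS libraries all lay above the 3 RA libraries, by about 11.4-fold, and it did not pass the limit in edgeR. None of the 8 genes did, and neither did any of the 21440 genes tested (0%). At an unadjusted p under 0.05, edgeR listed 1 of the 8 genes and 10.9% of all genes. The other 7 genes had overlapping groups and log2 fold changes between -0.29 and 0.64, and the median of the 8 was 0.06, against 0.01 over all genes.

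Il6 was at 0.125 CPM (4 counts), 0.374 CPM (13 counts) and 0.179 CPM (6 counts) in chronic RA F, M1 and M2. In chronic CS it was at 0.788, 1.01, 8.02, 2.14 and 1.18 CPM (15, 23, 193, 100 and 52 counts) in F, M1, M2, M3 and M4. Chronic CS M2 stood far above the other 4, and all 5 exceeded the highest RA value. The log2 fold change was 3.52 (SE 1.0, p = 0.00476, adjusted p = 0.312 by edgeR), and the exact two-sided permutation test gave 0.0357, the smallest p that 5 against 3 libraries allow. The share of all genes whose chronic groups did not overlap was 9.41%, with 3.92% higher and 5.49% lower. Without chronic CS M2 the log2 fold change was 2.49, with only the deeper libraries M3 and M4 of chronic CS it was 2.85, and with only F, M1 and M2 it was 3.85. DESeq2 gave Il6 an adjusted p of 0.0075, in a comparison in which it called 2.44% of all genes.

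The markers of other cells also differed in this comparison. The summed level of 7 neutrophil markers was 5.19 to 14.1 CPM in chronic RA and 22.9 to 163 CPM in chronic CS, highest in chronic CS M2, the library with the highest Il6. That of 11 mesenchymal markers was 174 to 229 CPM in chronic RA and 328 to 617 CPM in chronic CS, again highest in M2, and that of 9 alveolar epithelial markers was 472 to 700 CPM and 1148 to 4807 CPM, highest in M3. The defining neutrophil gene Ly6g had 0 counts in 9 of the 12 libraries. The part of these cells in the Il6 result was not tested.

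Lif, the other ligand, had 0 counts in chronic CS F and M2, and was at 6.82, 1.99 and 2.69 CPM in M1, M3 and M4. In chronic RA it was at 0.877, 1.12 and 2.44 CPM, inside that spread (log2 fold change 0.64, SE 1.38). Il6ra was at 24.97, 29.9 and 25.2 CPM in chronic RA F, M1 and M2 and at 35.6, 18.7, 27.3, 34.3 and 30.2 CPM in chronic CS F to M4. Libraries on both sides of RA gave a log2 fold change of 0.13 (SE 0.24). Lifr was at 75.4, 78.2 and 91.3 CPM in chronic RA and at 74.9, 93.1, 102, 103 and 80.9 CPM in chronic CS. Its groups overlapped, and the log2 fold change was 0.15 (SE 0.16, adjusted p = 0.762 by edgeR).

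Il6st was at 771, 768 and 869 CPM in chronic RA and at 736, 346, 445, 774 and 983 CPM in chronic CS. The low libraries were M1 and M2, and the highest was M4, above every RA library. The log2 fold change of -0.29 (SE 0.27) turned to 0.13 with M3 and M4 as the only CS libraries. Osmr was also lowest in M1 and next lowest in M2, with 146, 90.0, 126, 164 and 150 CPM in chronic CS against 155, 154 and 161 CPM in chronic RA (log2 fold change -0.21, SE 0.16). The lymphatic marker sum was low in the same libraries, at 14901 CPM in M1 and 15137 CPM in M2. It was 20466 to 21220 CPM in F, M3 and M4, and 19934 to 22931 CPM in chronic RA. The part of cell makeup in the Il6st and Osmr values was not tested. Stat3 ran from 232 CPM in M1 to 330 CPM in M4 in chronic CS, with 281, 303 and 301 CPM in F, M2 and M3, and was at 290, 296 and 295 CPM in chronic RA. The RA values fell inside the CS range, with a log2 fold change of -0.02 (SE 0.11) whose sign changed under other scalings. Socs3 was at 529, 511 and 695 CPM in chronic RA and at 480, 647, 559, 649 and 472 CPM in chronic CS, also overlapping, and its log2 fold change of -0.04 (SE 0.27) changed sign as well.

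The RA controls of the 2 time points were compared next. None of the 8 genes and none of all genes tested (0%) passed the limit in edgeR, whose unadjusted p was under 0.05 for 3 of the 8 genes and 7.01% of all genes. Groups of 5 genes did not overlap, Il6 with lower values and Il6ra, Il6st, Osmr and Socs3 with higher values in chronic RA, against 34.7% of all genes tested (17.7% higher, 17% lower). Osmr was at 90.3 and 94.9 CPM in acute RA and at 154 to 161 CPM in chronic RA, a log2 fold change of 0.76 (SE 0.21, adjusted p = 0.479 by edgeR). It was past the limit in DESeq2 (adjusted p = 0.0433, with 1.18% of all genes called) and in edgeR with only the RA libraries (adjusted p = 0.0455). Il6 was at 1.27 and 2.94 CPM in acute RA and at 0.125 to 0.374 CPM in chronic RA, and did not pass the limit (log2 fold change -3.20, SE 1.08, adjusted p = 0.604 by edgeR). This value was -2.47 without acute RA F and -3.77 without chronic RA M1. Il6st had a log2 fold change of 0.80 (SE 0.35), Il6ra of 0.66 (SE 0.30) and Socs3 of 0.51 (SE 0.35). Lifr, Lif and Stat3 overlapped, at 0.10 (SE 0.20), -0.60 (SE 1.66) and -0.06 (SE 0.14). Marker sums also differed between the RA groups without overlap. The lymphatic sum was 15254 to 17066 CPM in acute RA and 19934 to 22931 CPM in chronic RA, and the lymphoid sum 16.1 to 17.3 CPM and 40.6 to 69.5 CPM. Lower in chronic RA were the mesenchymal sum (324 to 358 CPM against 174 to 229 CPM) and the alveolar epithelial sum (890 to 1267 CPM against 472 to 700 CPM). The alveolar macrophage sum (675 to 766 CPM against 592 to 670 CPM) and the leukocyte sum (254 to 258 CPM against 169 to 241 CPM) were lower too, but each leaned on a single gene. Mrc1 was at 632 to 663 CPM in acute RA and 560 to 597 CPM in chronic RA, and Fcer1g at 132 to 137 CPM and 65.9 to 75.2 CPM. Of the 8 leukocyte markers, 4 were higher and 4 lower in chronic RA, with a median log2 fold change of 0.01. The part of these cells in the values of Osmr, Il6 and the other 3 genes was not tested. Pooling of mice differs between these groups in the same way as age.

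The acute and the chronic CS effects were compared by their difference in the same fit. None of the 8 genes passed the limit, which 0.452% of all genes did. For Lifr the acute effect was larger by 0.90 on the log2 scale (SE 0.27, adjusted p = 0.190 by edgeR), so the call in the acute and not in the chronic comparison is not shown to be a difference between them. For Il6 the difference was -2.49 (SE 1.46, adjusted p = 0.563 by edgeR), and -3.96 to -1.46 with 1 library left out. For Il6st it was 0.93 (SE 0.47) and for Il6ra 0.76 (SE 0.40). For Osmr it was 0.12 (SE 0.28), for Stat3 0.17 (SE 0.18), for Socs3 0.09 (SE 0.47) and for Lif -1.38 (SE 2.30). The order of group means also differed by gene. Lifr was highest in acute CS (159 ± 38.7 CPM, SD, n = 2), above chronic CS (90.7 ± 12.4, n = 5), chronic RA (81.6 ± 8.46, n = 3) and acute RA (76.3 ± 15.6, n = 2), and the last 3 overlapped. Osmr was highest in chronic RA (157 ± 3.49 CPM, n = 3) and chronic CS (135 ± 28.6, n = 5), followed by acute RA (92.6 ± 3.28, n = 2) and acute CS (86.8 ± 6.73, n = 2). Chronic RA lay above both acute groups without overlap, while chronic CS, with M1 at 90.0 CPM, overlapped all 3 other groups, and the acute groups overlapped each other.

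**Figure D3:**
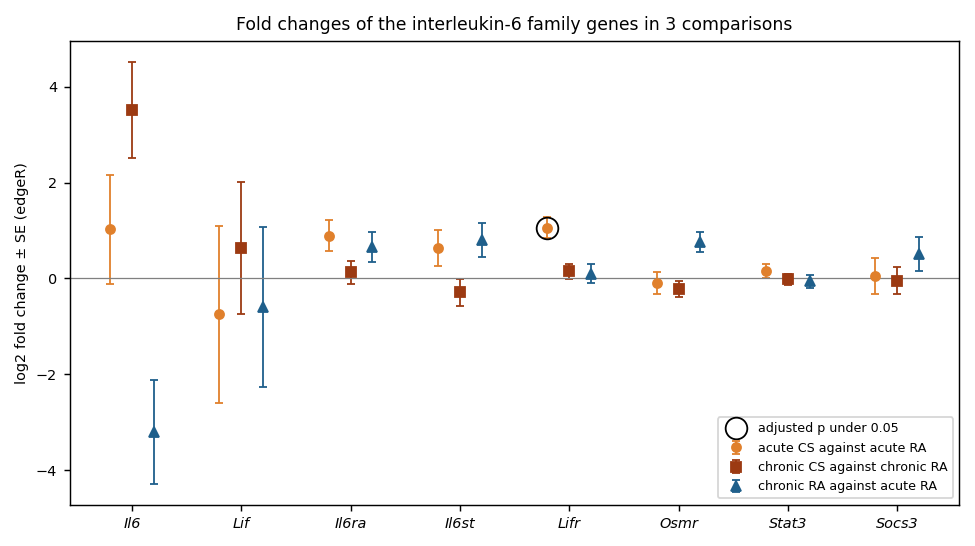
log2 fold change with its standard error from edgeR (vertical axis) of the 8 genes for acute CS against RA (circles), chronic CS against RA (squares) and chronic against acute RA (triangles). The ring marks Lifr in the acute comparison, the only value with an adjusted p under 0.05, and the ligands Il6 and Lif carry the widest errors.

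Other ligand genes of the family were also rare, and none of the 8 ligands that could be tested passed the limit in either CS comparison. Of all genes, 3.47% did in the acute and 0% in the chronic comparison. Cntf, Il27 and Il31 were too low to test. In the acute comparison 7 of the 8 had a positive log2 fold change, with a median of 1.29, and in the chronic comparison 5 of the 8, with a median of 1.12. Il11, Ctf1 and Clcf1 had mean levels of 0.0959, 0.667 and 2.67 FPKM in the RA libraries. Osm, the gene of oncostatin M, was at 6.67 and 0 CPM in acute RA F and M and at 44.6 and 13.8 CPM in acute CS F and M. The groups did not overlap, but the adjusted p was 0.384 (edgeR, log2 fold change 3.12, SE 1.58). Without acute CS F this fold change was 2.04 on the log2 scale, and without acute RA F no fold is given because the remaining RA library had 0 counts. In chronic RA Osm was at 0.924 to 4.29 CPM and in chronic CS at 3.73 to 24.4 CPM, with overlap (log2 fold change 2.15, SE 1.18) and with the highest value again in M2. Oncostatin M is known as a product of neutrophils and other leukocytes. The neutrophil sum was 1116 CPM in the F and 21.6 CPM in the M library of acute CS, and their part in the Osm values was not tested.

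Ebi3, a subunit of IL-27 and IL-35, was at 2.65 and 0.781 CPM in acute CS and at 0.135 and 0 CPM in acute RA (log2 fold change 4.59, SE 1.89, adjusted p = 0.258 by edgeR). It was 3.46 without acute CS F, and without acute RA F no fold is given for the same reason. These are small counts, and chronic CS Ebi3 reached at most 0.440 CPM (log2 fold change 1.61, SE 1.35, and 1.12 to 2.60 with 1 library left out).

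Among the 8 receptor subunits of the family, Lifr was called higher and Il11ra1 lower after acute CS (2.75% and 0.723% of all genes). Il11ra1 was at 284 and 264 CPM in acute RA F and M and at 128 and 177 CPM in acute CS F and M. The log2 fold change was -0.84 (SE 0.18, adjusted p = 0.0267 by edgeR). The call was lost with only the acute libraries (adjusted p = 0.125) and without acute RA F (0.188), acute RA M (0.134) or acute CS F (0.228). In the chronic comparison all 5 CS libraries (277, 261, 212, 236 and 268 CPM) lay below the 3 RA libraries (418, 384 and 339 CPM), as was so for 5.49% of all genes. The chronic log2 fold change of Il11ra1 was -0.60 (SE 0.13, adjusted p = 0.219 by edgeR, 0.00385 by DESeq2, which called 2.44% of all genes). The receptor genes Cntfr and Il27ra, which were not called, were at 0.597 and 10.5 FPKM in the RA libraries, and Il31ra had 27, 0 and 6 counts in chronic RA and 0 in chronic CS. The receptor median was 0.30 in the acute and -0.25 in the chronic comparison. In the acute CS libraries the lymphatic marker sum was low as well. In chronic CS the mesenchymal, alveolar epithelial and neutrophil sums given above were higher than in chronic RA. The part of cell makeup in the Il11ra1 values was not tested in either comparison.

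The kinase and STAT genes of the pathway gave no call among 7 genes in either CS comparison (3.47% and 0% of all genes), with medians of 0.15 and -0.12. Stat5a and Stat5b had acute log2 fold changes of 0.78 (SE 0.29) and 0.49 (SE 0.19), with adjusted p of 0.214 and 0.233 in edgeR. As given above, Stat5a overlaps Stat3.

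Of 10 feedback and negative regulators, Ptpn6 was called higher after acute CS (2.75% of all genes). It encodes SHP-1, a phosphatase best known from blood cells, and was at 4.31 and 10.5 CPM in acute RA and at 156 and 47.4 CPM in acute CS. The log2 fold change was 3.78 (SE 0.91, adjusted p = 0.0468 by edgeR), and the call was lost with sex as a covariate (0.0799), with only the acute libraries (0.115) and without acute RA F (0.330), acute RA M (0.195) or acute CS F (0.318). Its fold change was 2.68 on the log2 scale without acute CS F and 4.53 without acute RA M. The leukocyte marker Ptprc, which encodes CD45, was at 19.8 and 19.6 CPM in the same RA libraries and at 285 and 154 CPM in the CS libraries. The part of leukocytes in the Ptpn6 value was not tested. Socs2 had an acute log2 fold change of 0.96 (SE 0.38, adjusted p = 0.243 by edgeR). Cish, an inhibitor induced by STAT5, had a chronic one of 0.80 (SE 0.28, adjusted p = 0.372), and Ptpn1 one of -0.23 (SE 0.09, adjusted p = 0.401).

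Of 20 genes known as STAT3 targets, 2 were called higher and 2 lower after acute CS (2.75% and 0.723% of all genes), and the median log2 fold change was 0.03. These values come from the same 2 CS libraries in which the leukocyte sum was 1609 to 2324 CPM, against 254 to 258 CPM in acute RA, and the lymphatic sum 6485 to 9822 CPM, against 15254 to 17066 CPM. The part of cell makeup in them was not tested, nor in those of the immediate early genes below. The kinase gene Pim1 was at 6.78 and 4.58 CPM in acute RA and 25.8 and 15.9 CPM in acute CS (log2 fold change 1.88, SE 0.39, adjusted p = 0.0255 by edgeR). Il4ra, the IL-4 receptor gene, was at 172 and 180 CPM and at 450 and 256 CPM (log2 fold change 1.0, SE 0.23, adjusted p = 0.0371 by edgeR). Junb and Fos, which encode parts of the AP-1 transcription factor, fell. Junb was at 1992 and 2291 CPM in acute RA and 1206 and 1245 CPM in acute CS (log2 fold change -0.81, SE 0.17, adjusted p = 0.0241 by edgeR), and Fos at 3413 and 5310 CPM and at 1739 and 1790 CPM (-1.31, SE 0.25, adjusted p = 0.0192 by edgeR). All 4 calls were lost with only the acute libraries in the fit, with adjusted p from 0.107 to 0.192, and each was lost without acute RA M or without acute CS F. Those of Pim1, Il4ra and Junb were also lost without acute RA F, and those of Junb and Fos without acute CS M. Vegfa (1.52, SE 0.42) and Myc (-0.99, SE 0.29) came next, with adjusted p of 0.077 and 0.102 in edgeR. The Vegfa value was 0.42 without acute CS F, and 2.14 and called without acute CS M (adjusted p = 0.00216), and DESeq2 called both genes (0.00424 and 0.0166). In the chronic comparison 0 of the 20 were called, with a median of -0.06, and Bcl3 (-0.70, SE 0.22), Steap4 (-0.65, SE 0.25) and Ccnd1 (0.83, SE 0.35) had the 3 smallest p.

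Fos and Junb are also immediate early genes, which rise within minutes of stress or of enzymatic tissue dissociation. Of 13 such genes 4 were called lower (Egr1, Fos, Dusp1 and Junb) and 2 higher (Ier3 and Nr4a1) after acute CS (0.723% and 2.75% of all genes), and 0 in the chronic comparison. Egr1 was at 2653 and 3384 CPM in acute RA and 947 and 1344 CPM in acute CS (log2 fold change -1.40, SE 0.19, adjusted p = 0.0046 by edgeR). Dusp1 had a log2 fold change of -0.58 (SE 0.12, adjusted p = 0.0243), Ier3 of 1.76 (SE 0.33, adjusted p = 0.0154) and Nr4a1 of 1.80 (SE 0.38, adjusted p = 0.0248). Without acute RA M none of these 4 was called (adjusted p from 0.0766 to 0.178), and Dusp1, Ier3 and Nr4a1 were not called without acute RA F or acute CS F either. Dusp1 was also not called without acute CS M (0.0625), so its call needed all 4 acute libraries. Lungs of every group were digested with collagenase and dispase before sorting.

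**Figure D4:**
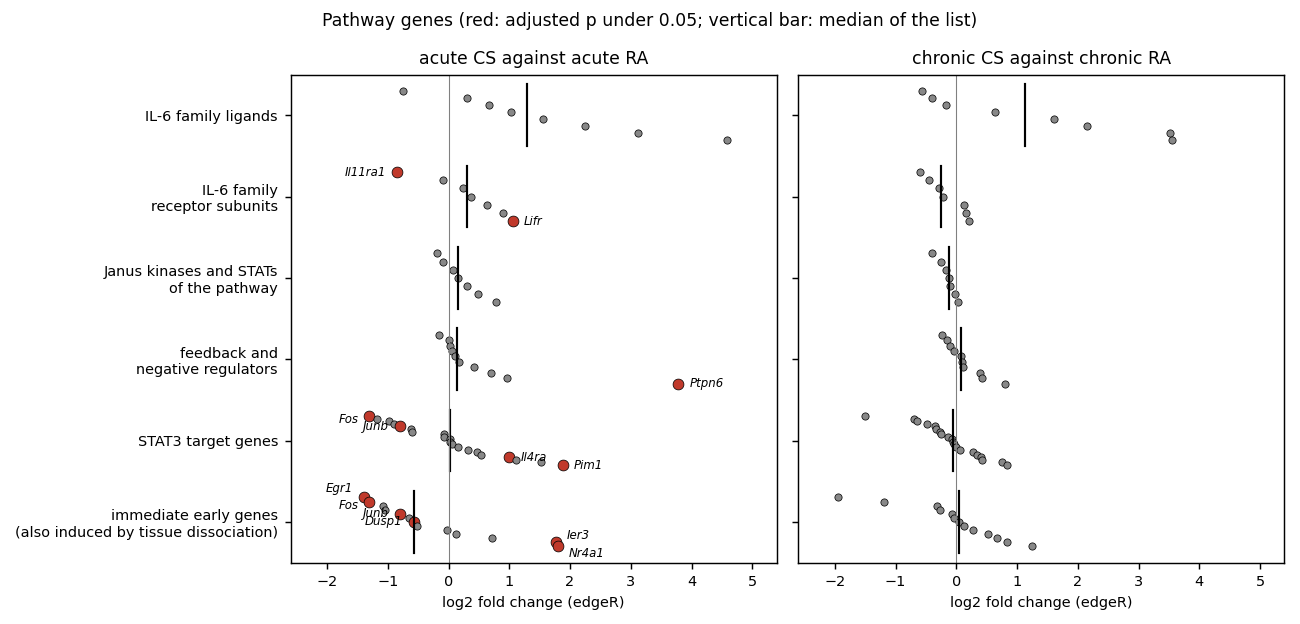
log2 fold change from edgeR (horizontal axes) of each gene of 6 lists in acute CS against RA (left) and chronic CS against RA (right); red points passed an adjusted p of 0.05 and vertical bars are list medians. The called genes, from Egr1 at -1.40 to Ptpn6 at 3.78, are all in the acute panel, and Il31ra, with 0 counts in chronic CS, is not drawn in the chronic panel.

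Of the CS comparisons, markers of other cells were called in the acute one. Of the list genes tested, 7 of 8 leukocyte, 7 of 10 blood endothelial, 6 of 11 mesenchymal, 3 of 8 lymphoid, 2 of 8 alveolar macrophage, 0 of 7 neutrophil and 0 of 9 alveolar epithelial markers were called higher, and 3 of 8 lymphatic markers and 1 of 8 alveolar macrophage markers lower. Over all genes these shares were 2.75% and 0.723%. In the chronic comparison 0 of all genes were called. There 7 of 9 alveolar epithelial, 8 of 11 mesenchymal, 5 of 7 neutrophil, 2 of 10 blood endothelial and 1 of 8 alveolar macrophage markers were higher in every CS library than in every RA library, against 3.92% of all genes. The lymphoid sum was 16.1 to 17.3 CPM in acute RA and 171 to 197 CPM in acute CS, the alveolar macrophage sum 675 to 766 CPM and 1987 to 2120 CPM, and the mesenchymal sum 324 to 358 CPM and 901 to 1311 CPM. The alveolar epithelial sum was 6591 CPM in the F and 337 CPM in the M library of acute CS, around the 890 to 1267 CPM of acute RA. Lifr was above 130 CPM in the 2 acute CS libraries, where the leukocyte sum was 1609 and 2324 CPM, and between 65.3 and 103 CPM where it was 162 to 424 CPM. In chronic CS M2 and M3, the leukocyte sum was 420 and 424 CPM and Lifr was 102 and 103 CPM, the highest of the 10 other libraries. Among these 10 the order was not kept throughout, since acute RA M, with a leukocyte sum of 254 CPM, had the lowest Lifr (65.3 CPM) and chronic RA M2, with 169.9 CPM, had 91.3 CPM. Acute CS F, with a neutrophil sum of 1116 CPM, had the highest Il6ra, 41.0 CPM, and acute CS M, with 21.6 CPM, had 22.0 CPM. Among the other libraries Il6ra did not keep this order. It was at 35.6 CPM in chronic CS F (neutrophil sum 22.9 CPM), at 18.7 CPM in chronic CS M1 (112 CPM) and at 24.97 to 29.9 CPM in chronic RA (5.19 to 14.1 CPM). The part of leukocytes in the Lifr values and of neutrophils in the Il6ra values was not tested.

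**Figure D5:**
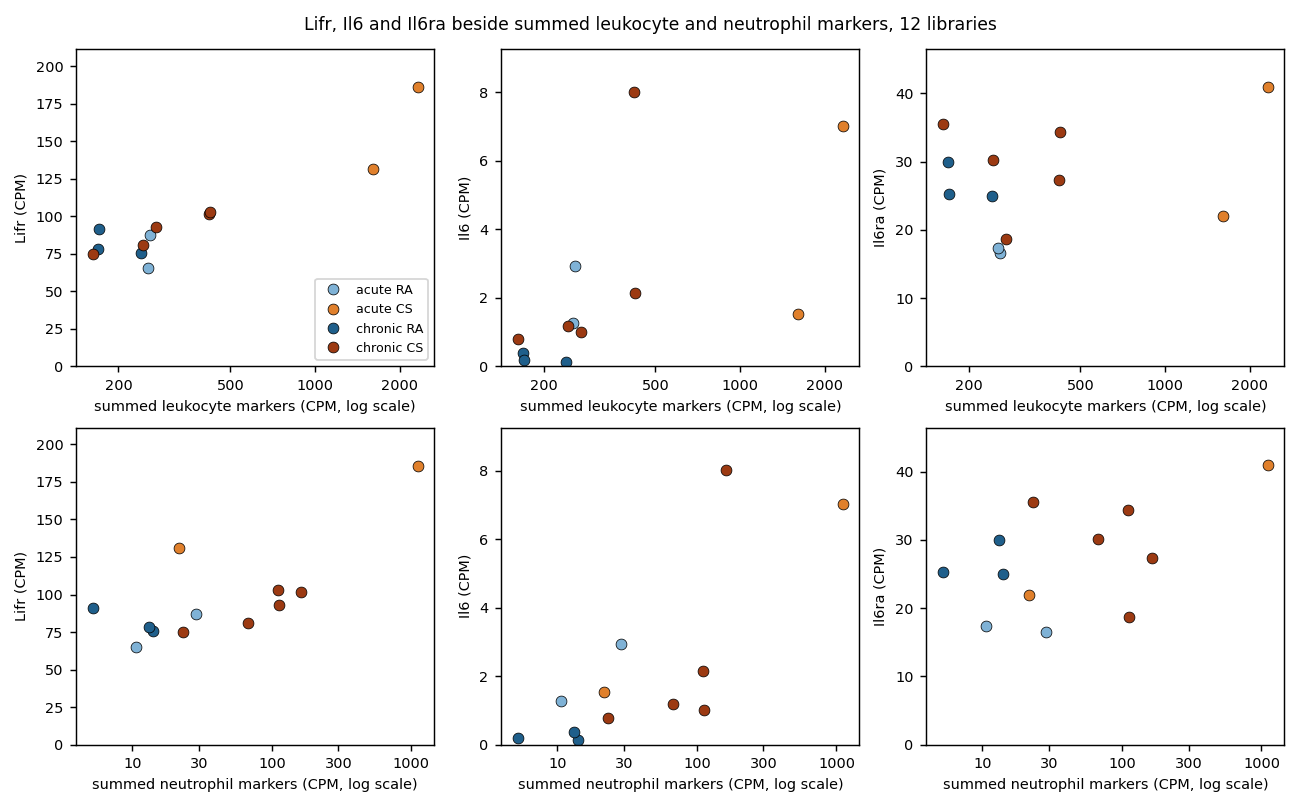
CPM of Lifr, Il6 and Il6ra (vertical axes, linear from 0) against the summed CPM of 8 leukocyte markers (top) and 7 neutrophil markers (bottom, both logarithmic), 1 point per library coloured by group. The acute CS points lie far right on the leukocyte axis, and only acute CS F lies far right on the neutrophil axis.

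For each gene, the protein-coding genes with the most similar pattern were found by Pearson's r of log2 CPM over the 12 libraries, among 11513 genes. These values describe libraries that share groups and cell makeup. Lifr was most like Pcdh1 (r = 0.971) and Mertk (0.970), Il6 like Lyst (0.936) and Cish (0.917), and Il6st like Qsox2 (0.961) and Nudcd3 (0.936). Il6ra was most like Rnf144b (0.938) and Klhl24 (0.919), Osmr like Drosha (0.955) and Wnt9a (0.946), and Stat3 like Hebp1 (0.969) and Ifi209 (0.948). The lowest values were found for Lif, with Zdhhc24 (0.919) and Stk40 (0.916), and Socs3, with Max (0.902) and Myh9 (0.895).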

How the data were processed

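RNA was sequenced from sorted lung LECs in 12 libraries, 2 to 5 per group, grouped by the titles and exposure labels. The deposited files hold raw counts per Ensembl gene and library, which the authors made with Skewer, Minion and FastQC 0.11.9 checks and STAR gene counting against GRCm38 (mm10). The annotation release and strand setting were not given in the sources used here. Symbols and lengths came from GENCODE M21, in which 147 of 52636 identifiers were not found (at most 0.0110% of a library's counts).

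Genes were filtered with filterByExpr and scaled by TMM, and 1 model over the 4 groups was fitted with the quasi-likelihood test of edgeR 4.0.16 (limma 3.58.1, R 4.3.3). The p-values were adjusted by Benjamini-Hochberg over all 21440 genes, with a limit of 0.05 and a prior count of 2 for log2 CPM. FPKM was CPM per kilobase of exon. The comparisons were acute CS against RA, chronic CS against RA, chronic against acute RA, and the difference of both CS effects. Exact two-sided permutation tests can reach 0.333, 0.0357 and 0.2 in the first 3. A count of 3, the limit behind a count of 0, equals 0.0507 to 0.158 CPM and covers counting error only. Where labels do not name separate animals, p-values measure the spread between libraries, which may be partly technical. The fitting steps were tested on simulated data.

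Named genes were the 8 genes and, from the lists of family ligands, receptor subunits, kinases and STATs, feedback regulators, STAT3 targets, immediate early genes and cell markers, the other ligands and receptor subunits, genes called or with the smallest p in a CS comparison, and abundant or defining markers, plus the 2 most similar genes; some that met this rule are not reported here. The 8 genes and the lists were chosen with earlier results of these data known. Alternatives were DESeq2 1.42.0, library size scaling, no filter, a fit of the compared groups alone, a covariate for sex, a replicate block, robust estimation, a prior count of 0.5, leaving out each library, and leaving out the deeper or the shallower chronic CS libraries. Tables and figures were made with Python 3.11.15, pandas 2.3.3, numpy 2.4.6 and matplotlib 3.10.9.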

Additional observations from a re-analysis of the deposited data

Results flagged for a closer look

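Il6 in chronic CS M2, at 8.02 CPM, stood further from the other 4 chronic CS libraries (0.788 to 2.14 CPM) than Dixon's limit for 5 samples allows. It was the 1 such value among 32 named genes tested in chronic CS, the only group large enough for this test, and chance marks about 1 in 20 groups. The log2 fold change of Il6 without this library was 2.49.

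The acute CS effect on Egr1, an immediate early transcription factor gene, differed from the chronic one by -1.32 on the log2 scale (edgeR, adjusted p = 0.0406). Egr1 was lower in both acute CS libraries (947 and 1344 CPM) than in both acute RA libraries (2653 and 3384 CPM), and lay between 3757 and 4840 CPM in all 8 chronic libraries. The difference was not called with sex as a covariate (adjusted p = 0.0578) or, among others, without acute RA M (0.224), acute RA F (0.143) or acute CS F (0.158).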

How the results depend on the processing

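Over 61 results for single genes and 859 alternatives, 750 kept their direction and side of the limit, 70 lost and 9 gained a call, and 30 changed sign. The number of genes called after acute CS was 745. It was 1961 with DESeq2, 139 with only the groups compared, 73 with the replicate block, and 3 to 858 when 1 acute library was left out (3 without acute RA M). Chronic libraries enter this count through the shared spread, and it was 973 without chronic CS M2 and 1488 without chronic CS F, M1 and M2. Below, libraries left out singly are those of the groups compared. Of the 8 genes, 1 was called there, and 0 with only the groups compared, 0 with the replicate block, and 0 to 1 with 1 library left out. In the chronic comparison 0 genes were called, and 524 with DESeq2, 10 with no filter, 1 without M3 and M4, 16 without F, M1 and M2, and 0 to 4 with 1 library left out, with 1 of the 8 genes (Il6) called by DESeq2. Between RA groups 0 were called, and 253 with DESeq2, 6 with no filter and 42 with only the groups compared, each of DESeq2 and the last calling 1 of the 8 (Osmr). The difference of the CS effects was called for 97 genes, and for 920 with DESeq2, 191 with no filter, 21 with sex as a covariate, 0 with the replicate block and 0 to 263 with 1 library left out.

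The replicate block treats equal labels (F, M, M1, M2) as pairs, which in the acute libraries is a block by sex. The deviations of equally labelled libraries correlated at 0.0693 in the acute and at -0.0419, 0.0342 and 0.00601 in the chronic libraries, all under 0.1, and the libraries were not taken as paired. With it Lifr had an acute log2 fold change of 1.05 (edgeR, adjusted p = 0.0526). Signs changed under the replicate block for Il6ra (-0.0147) and Lif (-3.66) in the chronic comparison, Socs3 in the acute one (-0.13), and the differences of Lif (3.06) and Socs3 (-0.0945). With library size in place of TMM they changed for Lifr between RA groups (-0.013), for Stat3 (0.0623) and Socs3 (0.0475) in the chronic comparison and for the difference of Socs3 (-0.0389), where the median of all genes was 0.10, -0.10 and -0.08 in the chronic, RA and difference values, against 0.01, 0 and 0.04 with TMM. Stat3 gave 0.0143 with DESeq2 in the chronic comparison. Without the shallower chronic CS libraries, Il6st gave 0.13, Osmr 0.000489 and Stat3 0.10, and the difference of Osmr -0.10.

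Leaving out 1 library changed signs within these ranges of log2 fold change: acute Il6 -0.45 to 1.76, Lif -1.31 to 0.14 and Socs3 -0.91 to 0.62, then chronic Lif -0.30 to 1.21, Stat3 -0.0714 to 0.0668 and Socs3 -0.12 to 0.12. Between RA groups they were -1.17 to 0.31 for Lif and -0.11 to 0.32 for Lifr, and for the difference -0.0572 to 0.20 for Osmr and -0.86 to 0.67 for Socs3. The cause was not tested. Il6 and Lif rest on few counts.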
